A study of Mus musculus with 12 samples.

Results

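Complement is a cascade of blood and tissue proteins that tags targets and calls phagocytes, and 8 of its genes were followed here of the 23253 genes in the deposited table. They were taken by symbol: C1qa, C1qb and C1qc, the chains of the recognition molecule C1q; C3, the protein on which the activation routes meet; C3ar1 and C5ar1, the receptors for the fragments C3a and C5a; Itgam, the CD11b chain of complement receptor 3; and Serping1, the C1 inhibitor. None of the 8 was called different between stroke and adult control or between siRNA-labelled stroke and stroke. In P4, 6 of the 8 were lower than in adult control, with the C1q chains, C5ar1 and Itgam at a mean of 2.44 CPM (read counts corrected for library depth) or less, while C3 and Serping1 were not called.

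C1q binds tagged surfaces and starts the classical route, which runs through C4 and C2 to the cleavage of C3. C3 fragments left on a surface are bound by complement receptor 3, and the soluble fragments C3a and C5a act on their own receptors. In the healthy brain microglia are the main source of C1q and carry CD11b, and the C1q, C3 and complement receptor 3 route is known for the removal of synapses during development and in disease.

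The libraries were made from total RNA of cells labelled as cortical neurons sorted by FACS, from C57BL/6 mice, with 3 libraries in each of 4 groups. Adult control animals had no stroke label, and stroke animals had a focal cortical lesion of 2 mm diameter made by 15 min of cold light after rose bengal, a photosensitive dye. The siRNA-labelled stroke group carries the same stroke label plus siRNA against GDF10, a TGF-beta family ligand. P4 is labelled a control, and the labels say neither what P4 stands for nor how long after stroke tissue was taken. All 12 samples carry 1 growth text, which names adult mice, and 1 treatment text, which describes the lesion, so these texts do not separate the groups. No label names a promoter, a reporter, the route of the siRNA or whether the libraries of a group came from separate animals, and p-values then measure only the spread between these libraries. Replicate numbers run from 1 to 3 in the adult control and siRNA-labelled groups and from 4 to 6 in the stroke and P4 groups. Number and group cannot be told apart where stroke or P4 was compared with adult control, or siRNA-labelled stroke with stroke or P4.

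Total counts ranged from 10517638 in adult control 3 to 48633350 in P4 library 4. The log2 CPM of libraries within a group correlated at 0.759 to 0.945 in adult control and at 0.921 or more in the other groups. Gdf10, the siRNA target, had 15, 21 and 0 counts in adult control, 0, 5 and 0 after stroke and 8, 7 and 1 in siRNA-labelled stroke. In P4 it had 189, 241 and 33. With so few counts in stroke itself, a knockdown relative to stroke could not be seen, and the group is called siRNA-labelled throughout. Genes of 15 neuron markers took a mean of 0.503% of counts in adult control, 0.198% after stroke, 0.266% in siRNA-labelled stroke and 0.828% in P4. Genes of 12 oligodendrocyte markers took 5.87%, 5.98%, 9.04% and 0.0206%. Oligodendrocyte markers thus took more counts than neuron markers in the adult groups, against the label.

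The 3 C1q genes lie side by side on mouse chromosome 4 (build mm10, all on the minus strand). C1qb spans chr4:136880126-136886200, C1qc chr4:136889801-136892936 and C1qa chr4:136895916-136898844, so the cluster covers 18719 bases with gaps of 3600 and 2979 bases between the genes. RefSeq promoters on this build, from 250 bases before to 50 after the annotated start, were matched for 6 of the 8 genes, all but C1qa and Serping1. The promoters of C1qb and C1qc are shown because these neighbours had the most similar levels of any pair of the 8, and that of Itgam because it holds the motif searched for more than once. Capitals mark GAGGAA, the core bound by PU.1, a transcription factor of myeloid cells, or its reverse complement TTCCTC. C1qb is at chr4:136886151-136886450 (minus strand), C1qc at chr4:136892865-136893164 (minus strand) and Itgam at chr7:128062390-128062689 (plus strand).
C1qb: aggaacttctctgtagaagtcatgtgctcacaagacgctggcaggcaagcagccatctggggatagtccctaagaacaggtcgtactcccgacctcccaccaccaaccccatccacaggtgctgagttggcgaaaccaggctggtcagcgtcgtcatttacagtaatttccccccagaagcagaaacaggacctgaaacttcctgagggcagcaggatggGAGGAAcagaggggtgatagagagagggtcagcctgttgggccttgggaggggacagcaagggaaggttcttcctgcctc
C1qc: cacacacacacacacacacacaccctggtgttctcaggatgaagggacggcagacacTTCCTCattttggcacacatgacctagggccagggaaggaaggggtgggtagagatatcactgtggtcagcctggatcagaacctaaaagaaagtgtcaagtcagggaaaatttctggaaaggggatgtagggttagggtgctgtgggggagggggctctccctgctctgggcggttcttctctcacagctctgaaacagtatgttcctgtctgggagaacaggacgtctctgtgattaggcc
Itgam: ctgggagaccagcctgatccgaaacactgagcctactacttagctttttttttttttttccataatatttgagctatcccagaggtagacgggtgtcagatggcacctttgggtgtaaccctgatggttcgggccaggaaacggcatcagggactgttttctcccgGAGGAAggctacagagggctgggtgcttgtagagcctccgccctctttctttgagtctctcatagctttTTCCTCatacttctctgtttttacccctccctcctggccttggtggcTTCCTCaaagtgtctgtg
The core, searched on both strands, occurred 1 time in the C1qb window with its first base at -30 from the start, 1 time in C1qc at -193 and 3 times in Itgam at -84, -15 and 33. It did not occur in the windows of C3, C3ar1 or C5ar1. Of all 32851 RefSeq promoters of 300 bases, 28.3% held it. The STAT motif TTCNNNGAA, held by 8.3% of all promoters and searched the same way, occurred in none of the 6 windows.

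**Figure D1:**
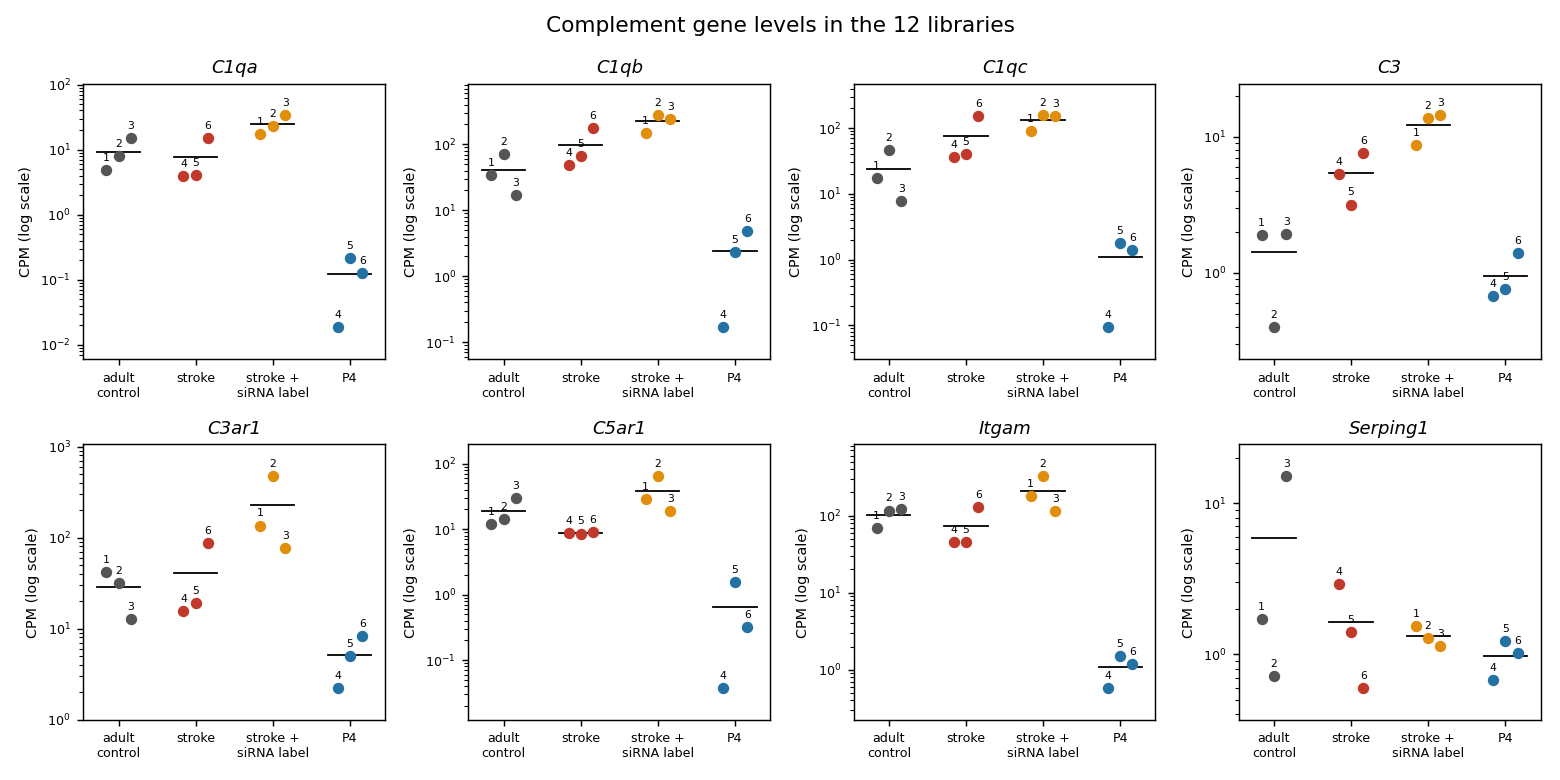
CPM of the 8 genes on a log axis in each library, with library numbers beside the points and a line at each group's mean. The 3 P4 libraries lie below all 9 adult libraries for C1qa, C1qb, C1qc, C3ar1, C5ar1 and Itgam, and stroke library 6 lies above the other stroke libraries for C1qa, C1qb, C1qc, C3ar1 and Itgam.

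The chains of C1q were lowest in P4 and highest in siRNA-labelled stroke, with stroke and adult control overlapping. C1qa was at 4.80, 8.10 and 14.9 CPM in adult control 1 to 3, at 3.94, 4.07 and 15.1 in stroke 4 to 6, at 17.3, 23.1 and 33.6 in siRNA-labelled stroke 1 to 3, and at 0.0187, 0.218 and 0.127 in P4 4 to 6. The adult control and stroke libraries overlapped, every siRNA-labelled library was above both, and P4 was below all others on only 1, 11 and 2 counts. Between stroke and adult control the difference in C1qa on the log2 scale was -0.26 (SE 0.75, adjusted p = 0.888), between siRNA-labelled stroke and stroke 1.68 (SE 0.77, adjusted p = 0.666), and between siRNA-labelled stroke and adult control 1.42 (SE 0.76, adjusted p = 0.662). Without adult control 3 the stroke value became 0.25, and without stroke 6 it became -1.19.

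C1qb was at 34.8, 71.6 and 17.3 CPM in adult control, 48.6, 66.1 and 177 after stroke, 151, 275 and 244 in siRNA-labelled stroke, and 0.168, 2.34 and 4.82 in P4. C1qc followed the same order of groups, at 17.6, 47.0 and 7.87 CPM in adult control, 36.4, 39.7 and 152 after stroke, 91.4, 156 and 152 in siRNA-labelled stroke, and 0.0936, 1.76 and 1.39 in P4. For both chains stroke 6 reached the range of the siRNA-labelled libraries, while stroke 4 and 5 lay within or near that of adult control. Stroke against adult control gave 1.23 for C1qb (SE 0.79, adjusted p = 0.463) and 1.64 for C1qc (SE 0.82, adjusted p = 0.341). Without stroke 6 these were 0.48 and 0.65. The stroke and siRNA-labelled stroke libraries overlapped, with log2 differences of 1.20 for C1qb (SE 0.79, adjusted p = 0.761) and 0.81 for C1qc (SE 0.80, adjusted p = 0.844). The siRNA-labelled libraries did not overlap adult control for either gene, at 2.43 (SE 0.82, adjusted p = 0.421) and 2.46 (SE 0.84, adjusted p = 0.430).

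Over the 12 libraries, log2(CPM + 1) of C1qb and C1qc correlated at 0.990 and over the 9 adult libraries at 0.988, while C1qa and C1qb correlated at 0.902 and 0.628. These are descriptions over libraries that share depth and cell content. The chains did not keep 1 ratio of counts. C1qb had 7.26 and 8.85 counts per C1qa count in adult control 1 and 2 but 1.16 in adult control 3, 11.7 to 16.3 in stroke and 7.28 to 11.9 in siRNA-labelled stroke. Adult control 3 was thus the library in which C1qa was highest of its group and C1qb and C1qc lowest.

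C3, the central component, was at 1.90, 0.397 and 1.94 CPM in adult control, 5.32, 3.17 and 7.60 after stroke, 8.73, 13.7 and 14.3 in siRNA-labelled stroke, and 0.674, 0.753 and 1.39 in P4. The adult control, stroke and siRNA-labelled groups did not overlap with each other, and P4 lay within the range of adult control. The counts behind these values ran from 16 to 496 per library. Stroke against adult control gave 1.94 (SE 0.78, unadjusted p = 0.026, adjusted p = 0.253), siRNA-labelled stroke against stroke 1.19 (SE 0.76, adjusted p = 0.761), and siRNA-labelled stroke against adult control 3.13 (SE 0.82, unadjusted p = 0.00168, adjusted p = 0.270). DESeq2 called the last of these, with an adjusted p of 0.00311, and the authors' deposited table gives it a log2 fold change of 3.15 with an FDR of 0.0357.

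Of the anaphylatoxin receptors, C3ar1 had its highest levels in siRNA-labelled stroke. C3ar1 was at 42.3, 31.8 and 12.8 CPM in adult control, 15.5, 19.0 and 88.0 after stroke, 136, 474 and 76.9 in siRNA-labelled stroke, and 2.23, 5.03 and 8.24 in P4. Stroke 6 exceeded the lowest siRNA-labelled library, and siRNA-labelled library 2 was the highest of all. The log2 fold change was 0.49 for stroke against adult control (SE 0.75, adjusted p = 0.777), 2.49 for siRNA-labelled stroke against stroke (SE 0.79, unadjusted p = 0.00668, adjusted p = 0.557) and 2.98 for siRNA-labelled stroke against adult control (SE 0.81, unadjusted p = 0.00221, adjusted p = 0.290). Without stroke 6 the first was -0.74, and without siRNA-labelled library 2 the other two were 1.38 and 1.87. DESeq2 called C3ar1 in siRNA-labelled stroke against adult control with an adjusted p of 0.0103, and the authors' deposited table gives 2.98 with an FDR of 0.0181.

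C5ar1 was at 12.1, 14.3 and 30.5 CPM in adult control, 8.63, 8.58 and 9.01 after stroke, 29.3, 64.6 and 19.2 in siRNA-labelled stroke, and 0.0374, 1.57 and 0.317 in P4. The 3 stroke libraries had a mean of 8.74 ± 0.236 CPM (SD, n = 3) and lay below every adult control and siRNA-labelled library. Unlike the C1q chains, C5ar1 in stroke 6 was close to stroke 4 and 5. The log2 fold change was -1.11 for stroke against adult control (SE 0.84, adjusted p = 0.541), 2.11 for siRNA-labelled stroke against stroke (SE 0.86, adjusted p = 0.636) and 1.00 for siRNA-labelled stroke against adult control (SE 0.84, adjusted p = 0.826).

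Itgam, whose product pairs with that of Itgb2 to bind C3 fragments, was at 69.9, 116 and 121 CPM in adult control, 44.9, 45.9 and 128 after stroke, 179, 325 and 115 in siRNA-labelled stroke, and 0.580, 1.51 and 1.20 in P4. The 3 adult groups overlapped, with stroke 4 and 5 the lowest of the 9 adult libraries. Stroke against adult control gave -0.49 (SE 0.50, adjusted p = 0.659), siRNA-labelled stroke against stroke 1.50 (SE 0.51, unadjusted p = 0.010, adjusted p = 0.594) and siRNA-labelled stroke against adult control 1.01 (SE 0.50, adjusted p = 0.617).

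Serping1, the inhibitor that removes the proteases bound to C1q, was at 1.71, 0.720 and 15.1 CPM in adult control, 2.90, 1.41 and 0.597 after stroke, 1.55, 1.27 and 1.13 in siRNA-labelled stroke, and 0.674, 1.23 and 1.01 in P4. Apart from adult control 3, every library was at 2.90 CPM or less, and the groups overlapped. Stroke against adult control gave -1.82 (SE 1.14, adjusted p = 0.455) and siRNA-labelled stroke against adult control -2.13 (SE 1.16, adjusted p = 0.663). Without adult control 3, the library of the lowest total count, both turned, to 0.44 and 0.12.

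**Figure D2:**
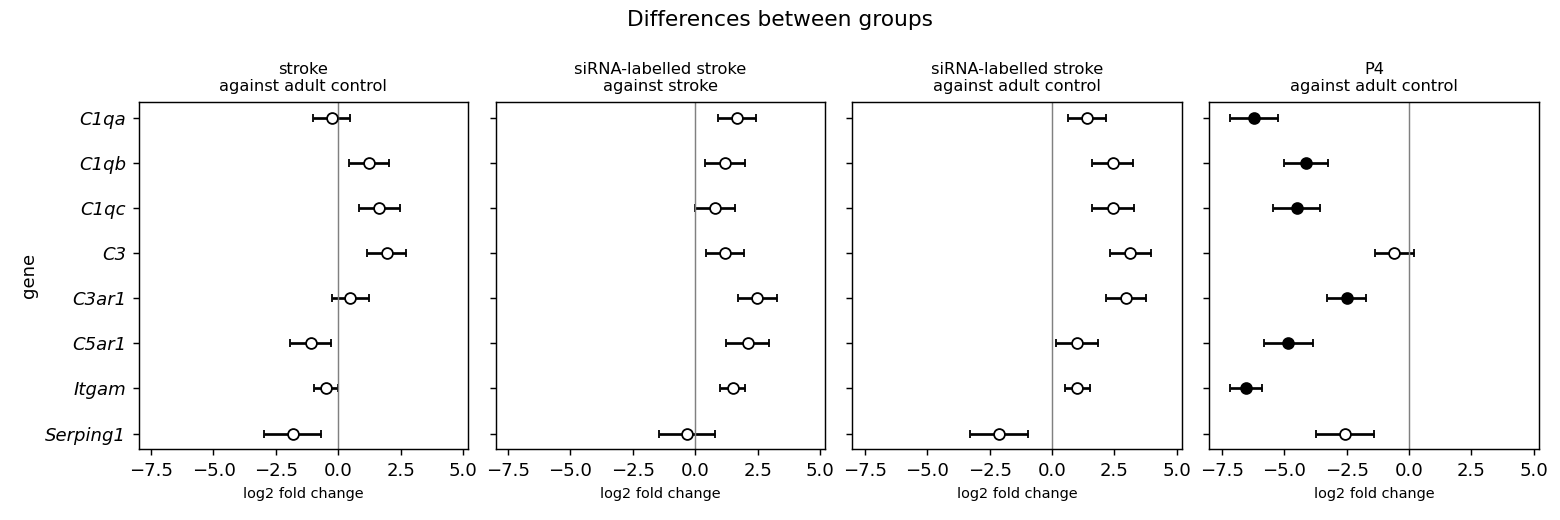
Log2 fold changes of the 8 genes from the edgeR fit, with bars of 1 SE either side; filled points passed an adjusted p of 0.05 and open points did not. No point is filled in the 3 comparisons among adult groups, and 6 are filled in P4 against adult control, from -2.50 for C3ar1 to -6.55 for Itgam.

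Counted as a group, 0 of the 8 genes were called by edgeR in stroke against adult control, where 0.704% of the 17909 genes tested were called, 1 of 8 had an unadjusted p below 0.05 (15.9% of all genes), and DESeq2 also called 0 (7.72% of the genes to which it gave an adjusted p). The libraries of the 2 conditions did not overlap for 2 of the 8, C3 and C5ar1, against 20% of all genes. Their median log2 fold change was 0.11, with 4 of 8 above 0, against -0.08 over all genes tested. In siRNA-labelled stroke against stroke, 0 of 8 were called by edgeR against 0.00558% of all genes, and 4 of 8 had an unadjusted p below 0.05 against 7.37%. DESeq2 called 0 (0.942% of the genes to which it gave an adjusted p). Here 3 of 8, C1qa, C3 and C5ar1, did not overlap against 15.9% of all genes, 7 of 8 were above 0, and the median was 1.35 against 0.04. In siRNA-labelled stroke against adult control, 0 of 8 were called by edgeR against 0.117%, and 4 of 8 had an unadjusted p below 0.05 against 8.36%. DESeq2 called 2, C3 and C3ar1 (2.07% of the genes to which it gave an adjusted p). There 5 of 8, the C1q chains, C3 and C3ar1, did not overlap against 10.8%, 7 of 8 were above 0, and the median was 1.92 against -0.02. These 3 comparisons share libraries pairwise and their values are not independent of each other. In the authors' deposited table, 0 of the 8 had an FDR below 0.05 in the first comparison (3.02% of all genes), 0 in the second (0.159%) and 2 in the third (0.839%).

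Markers of microglia, which have a role as the main source of C1q in brain, followed some of the 8 genes across libraries more closely than others. The list of 16, which holds none of the 8 genes, summed to 930 to 1235 CPM in adult control, to 469, 522 and 1357 in stroke 4, 5 and 6, to 2140, 4534 and 2016 in siRNA-labelled stroke 1, 2 and 3, and to 29.0 to 44.3 in P4. Stroke 6 was thus the stroke library highest in microglia markers as well as in C1q, C3ar1 and Itgam, and siRNA-labelled library 2 was highest in microglia markers as well as in C3ar1, C5ar1 and Itgam. In siRNA-labelled stroke against stroke, 0 of the 16 markers were called by edgeR and 5 by DESeq2, 10 had an unadjusted p below 0.05, 11 did not overlap, and their median log2 fold change was 1.89, beside 1.35 for the 8 complement genes. In stroke against adult control their median was -0.30, with 0 called by edgeR, 2 by DESeq2 and 3 at an unadjusted p below 0.05. It was 1.20 in siRNA-labelled stroke against adult control, with 0, 3 and 7. At most 2 of the 16 markers had no counts in a library, adult control 3. In bulk libraries such as these, fewer cells of a type and less RNA per cell cannot be told apart. The part of microglia content in the complement differences was not tested.

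Macrophages of the brain's borders, with 7 markers, summed to 86.2 to 165 CPM in adult control, 78.7 to 115 in stroke, 184 to 372 in siRNA-labelled stroke and 1.25 to 81.6 in P4. Of the 11 monocyte and neutrophil markers in the table, 2 passed the filter on low counts. The list summed to 13.9 CPM in siRNA-labelled library 2 and to between 0.449 and 3.37 CPM in the other libraries. Markers of these blood cells were thus low, and highest in the library that was also highest in C3ar1, C5ar1 and Itgam. The part of blood cells in the complement values was not tested. Across the 12 libraries the log2(CPM + 1) of Itgam correlated at 0.991 with the summed microglia markers, C1qa at 0.958, C5ar1 at 0.955, C1qb at 0.940, C1qc at 0.921 and C3ar1 at 0.896. C3 stood lower at 0.700 and Serping1 at 0.164. Over the 9 adult libraries, without the P4 libraries that are low for both quantities, the values were 0.947 for Itgam, 0.920 for C3ar1, 0.829 for C1qa, 0.802 for C5ar1, 0.720 for C1qb, 0.632 for C1qc, 0.552 for C3 and -0.301 for Serping1. With the summed border macrophage markers the same 9 libraries gave 0.853 for C1qa, 0.816 for C5ar1 and 0.567 for C3, above their values with microglia, and 0.755 for Itgam, 0.652 for C3ar1, 0.609 for C1qb, 0.500 for C1qc and -0.052 for Serping1. These correlations describe libraries that share depth and sorting, and no test was made of them.

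**Figure D3:**
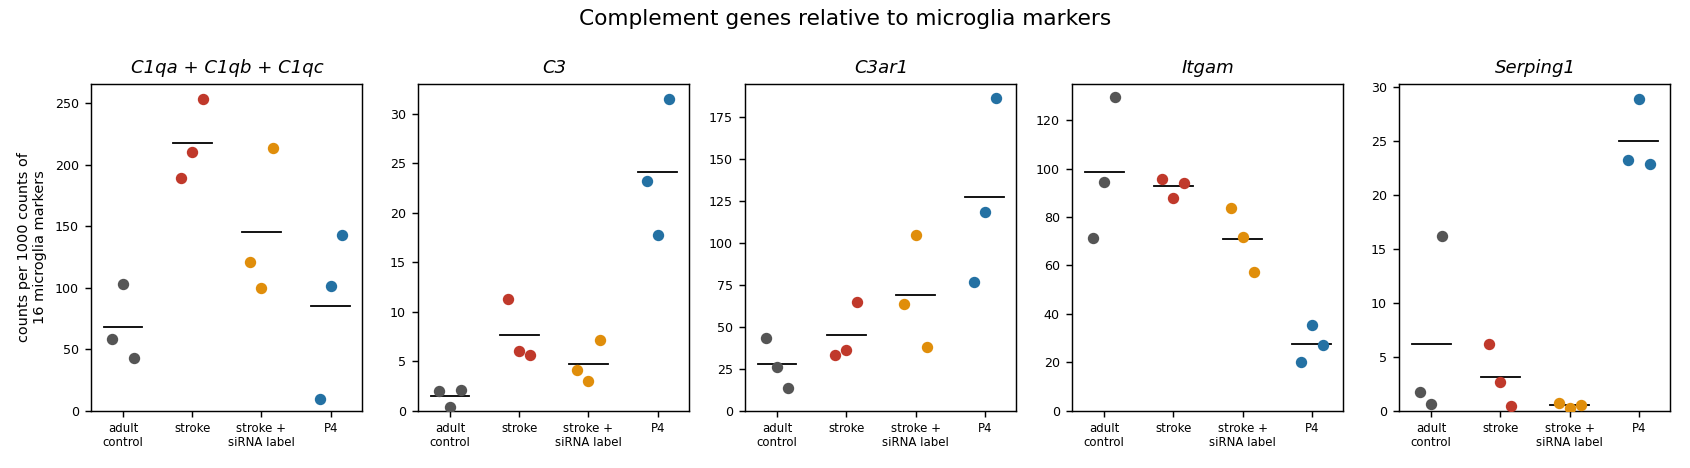
Counts of the summed C1q chains, C3, C3ar1, Itgam and Serping1 per 1000 counts of the 16 microglia markers, on linear axes that start at 0, with a point per library and a line at each group's mean. The 3 stroke libraries lie at 190 to 254 for C1q and above the 43.2 to 103 of adult control, while for Itgam the same 2 groups overlap.

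Set against the microglia markers, the genes differed in how they stood in stroke. The 3 C1q chains together gave 58.4, 103 and 43.2 counts per 1000 marker counts in adult control, 190, 211 and 254 after stroke, and 121, 100.1 and 213 in siRNA-labelled stroke. All 3 stroke libraries, and not library 6 alone, were above adult control on this scale, and siRNA-labelled stroke overlapped both. The divisor was itself low in stroke 4 and 5, at 0.0431% and 0.0532% of counts against 0.0775% to 0.138% in adult control. A low divisor raises the ratio of any gene there. How many of all genes would separate stroke from adult control on this scale was not counted. Stroke was above adult control in this way for C1qb and C1qc, which make up most of the sum. It was not for C1qa, at 4.90, 6.56 and 16.1 in adult control, 8.38, 7.79 and 11.2 after stroke and 8.07, 5.09 and 16.7 in siRNA-labelled stroke, which overlap. C3 gave 1.94, 0.322 and 2.08 in adult control, 11.3, 6.07 and 5.60 after stroke, and 4.08, 3.01 and 7.11 in siRNA-labelled stroke, with every library of both stroke groups above adult control. Itgam gave 71.3, 94.3 and 130 in adult control, 95.8, 88.0 and 94.2 after stroke, and 83.6, 71.7 and 57.2 in siRNA-labelled stroke, which overlap. C3ar1 gave 43.2, 25.7 and 13.7 in adult control, 33.1, 36.3 and 64.8 after stroke, and 63.6, 105 and 38.2 in siRNA-labelled stroke, with overlap between each pair of neighbours. In P4, where the divisor itself was low, C3 gave 23.2, 17.7 and 31.5, Serping1 23.2, 28.9 and 22.9, and C3ar1 76.7, 118 and 186, while Itgam gave 20.0, 35.4 and 27.2. The P4 libraries were thus above all 9 adult libraries for C3 and Serping1 on this scale and below them for Itgam. The summed C1q chains gave 9.67, 102 and 143 in P4, which overlap adult control. C5ar1 gave 1.29, 36.8 and 7.15 in P4 and 12.3, 11.6 and 32.7 in adult control, which also overlap. With 3 libraries against 3 an exact permutation test cannot go below 0.10, and these ratios were not tested. Single markers inside the list went in different directions in stroke against adult control. Ctss, a lysosomal protease, had 0.28 (edgeR adjusted p = 0.864). P2ry12, a purinergic receptor of resting microglia, had -2.40 (edgeR adjusted p = 0.129). DESeq2 called P2ry12 lower in this comparison, and also Siglech, another marker in the divisor. These markers were named after their values were seen, and no other divisor was tried.

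P4 differed from adult control for most of the genes. Of the 8, 6 were called lower and 0 higher, where 10.4% of all genes tested were called lower and 16.8% in either direction, and the same 6 did not overlap against 32.1% of all genes. Itgam fell by 6.55 on the log2 scale (SE 0.64, adjusted p = 6.60e-06), from a mean of 102 ± 28.2 to 1.10 ± 0.472 CPM (SD, n = 3 each, edgeR). C1qa fell by 6.22 (SE 0.97, adjusted p = 0.000398), C5ar1 by 4.84 (SE 0.98, adjusted p = 0.00306), C1qc by 4.51 (SE 0.94, adjusted p = 0.00359) and C1qb by 4.13 (SE 0.89, adjusted p = 0.00486). C3ar1 fell by 2.50 (SE 0.80, adjusted p = 0.0429), and this call was lost without adult control 1 or 2 or P4 library 4 or 5 (adjusted p 0.0648 to 0.157) and with DESeq2's size factors (adjusted p = 0.0545). C3 had -0.58 (SE 0.77, adjusted p = 0.670) and Serping1 -2.57 (SE 1.17, adjusted p = 0.160), which became -0.31 without adult control 3 and was called by DESeq2 (adjusted p = 0.0408). In a fit of these 2 groups alone, 3 of the 8 were called, C1qa, C5ar1 and Itgam. Of the 16 microglia markers 15 were called lower in the same comparison, and their part in the complement values was not tested.

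Among the P4 libraries, library 4, the most deeply sequenced, was the lowest in CPM for all 8 genes, from 0.0187 for C1qa to 2.23 for C3ar1. C3ar1 was the receptor with the highest P4 level per length, at a mean of 1.20 CPM per kilobase of merged exon, against 0.249 for C5ar1 and 0.218 for Itgam. Stroke and siRNA-labelled stroke were each set against P4 as well, and these comparisons share the P4 libraries with the one above. In stroke against P4, 7 of 8 were called higher, where 10.8% of all genes were and 18.8% were called in either direction, with C3 at 2.52 (adjusted p = 0.0378), C3ar1 at 2.99 (adjusted p = 0.0168) and Itgam at 6.06 (adjusted p = 7.53e-06). The C3 call was lost without any 1 of the 6 libraries (adjusted p 0.0508 to 0.158), with DESeq2's size factors (adjusted p = 0.0566) and without the filter on low counts (adjusted p = 0.0596), and the C3ar1 call without P4 library 4 or 5 or stroke 6 (adjusted p 0.0550 to 0.146). In siRNA-labelled stroke against P4, 7 of 8 were called higher, where 11.6% of all genes were and 19.6% were called in either direction, from 3.71 for C3 (adjusted p = 0.00498) to 7.63 for C1qa (adjusted p = 8.26e-05). Serping1 was the gene not called in either, at 0.75 (adjusted p = 0.713) and 0.43 (adjusted p = 0.851).

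Per kilobase of merged exon, C1qb was the highest of the 8 in every group, at a mean of 37.9 CPM per kilobase in adult control, 89.5 after stroke, 205 in siRNA-labelled stroke and 2.24 in P4. Itgam was second in adult control at 20.4, with C1qc at 12.5, C1qa at 8.92, C5ar1 at 7.37 and C3ar1 at 6.73. In stroke and siRNA-labelled stroke C1qc was second, at 39.3 and 69.0. C3 and Serping1 were the 2 lowest in the 3 adult groups, at 0.275 and 2.51 in adult control and 2.38 and 0.566 in siRNA-labelled stroke. By mean CPM, C1qb, C1qc, C3 and C3ar1 ran from P4 through adult control and stroke to siRNA-labelled stroke. C1qa, C5ar1 and Itgam ran from P4 through stroke and adult control to siRNA-labelled stroke, with adult control and stroke overlapping for C1qa and Itgam. Serping1 had its highest mean in adult control, from 1 library.

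In the rest of the complement system, C4b was the gene that edgeR called among the adult groups. Of 52 further complement genes listed, 50 were in the table and 43 passed the filter. In stroke against adult control 1 of these 43 was called higher and 0 lower (0.704% of all genes called), with a median log2 fold change of -0.15. DESeq2 called 3 higher (C4b, C1qbp and Masp1) and 4 lower (Csmd3, C6, C8a and Vtn). It called 7.72% of the genes to which it gave an adjusted p. Masp1 was at 4.92, 7.25 and 15.4 CPM in adult control and 36.4, 44.8 and 40.9 after stroke. The authors' deposited table gives Masp1 a log2 fold change of 2.18 with an FDR of 0.0258. C1qbp, Masp1 and Vtn were named after their values were seen. The gene C4b encodes C4, the component that C1s cleaves once C1q has bound. C4b was at 5.83, 12.9 and 8.44 CPM in adult control, 924, 865 and 625 after stroke, 214, 286 and 798 in siRNA-labelled stroke, and 0.374, 0.456 and 1.58 in P4. All 6 stroke and siRNA-labelled libraries were above adult control, and stroke 6, high for C1q, was the lowest stroke library for C4b. C4b rose by 6.47 in stroke (SE 0.67, adjusted p = 0.000415) and by 5.57 in siRNA-labelled stroke against the same adult control libraries (SE 0.65, adjusted p = 0.00245). The second call was lost in a fit of the 2 groups alone (adjusted p = 0.0594) and was made by DESeq2. Between the stroke groups it had -0.90 (SE 0.53, adjusted p = 0.744). C4b has a near-identical neighbour, C4a, so reads may have been split or exchanged between them.

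**Figure D4:**
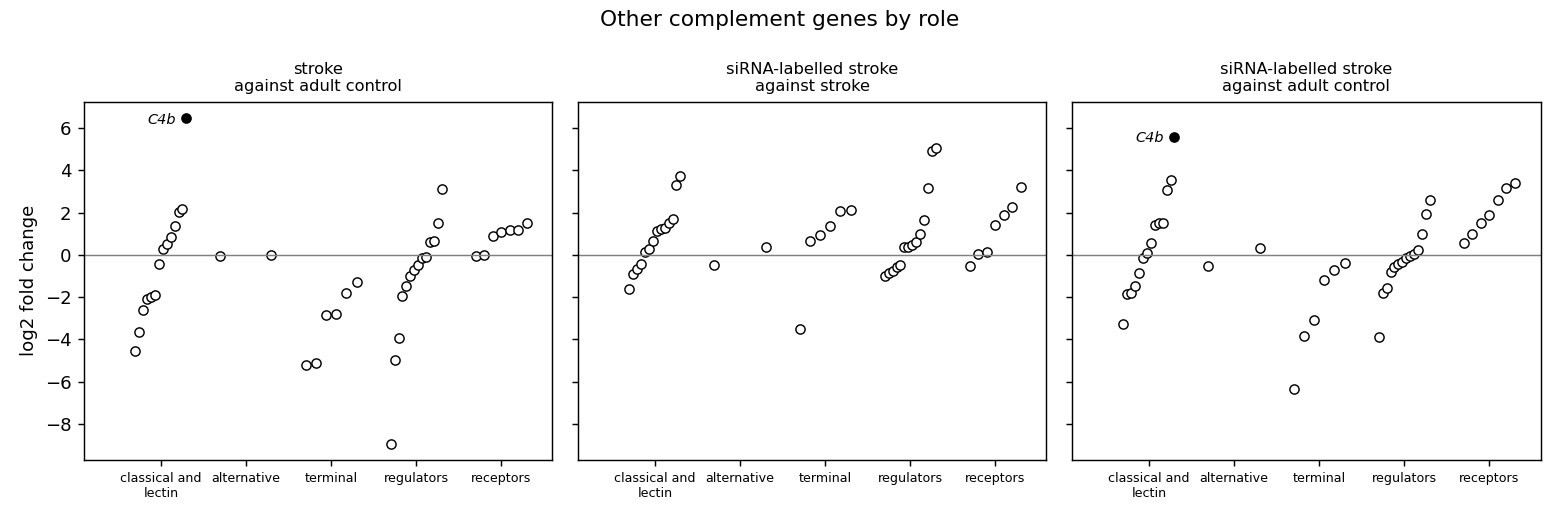
Log2 fold changes of the 43 further complement genes tested, placed by role, in the 3 comparisons among adult groups; filled points passed an adjusted p of 0.05. C4b, at 6.47 and 5.57 in stroke and siRNA-labelled stroke against adult control, is the single filled point.

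By role, 14 classical and lectin genes, 2 alternative genes, 6 terminal genes, 14 regulators and 7 receptors were tested. In stroke against adult control the 6 terminal genes, whose products form the membrane pore, were all below 0 (median -2.83) and 0 of them were called by edgeR, with 2 at an unadjusted p below 0.05 and 2 called lower by DESeq2. Adult control 3, the library of the lowest total count, was the highest adult control library for 5 of these 6, such as C6 at 44.9 CPM against 1.59 and 0.373 in adult control 1 and 2, and the libraries of the 2 conditions overlapped for each of the 6. Without adult control 3 the median was -1.29 and 0 had an unadjusted p below 0.05. The 7 genes listed as receptors, among them the chaperone Calr, had a median of 1.07 in the same comparison. The median was 1.43 in siRNA-labelled stroke against stroke and 1.89 in siRNA-labelled stroke against adult control. In these comparisons 0 were called by edgeR in each, and 1, 2 and 4 had an unadjusted p below 0.05. DESeq2 called 1 higher in each. That gene was C1qbp in stroke against adult control and Cd93, named after its values were seen, in the other comparisons. In siRNA-labelled stroke against stroke 0 of the 43 were called by edgeR, 4 had an unadjusted p below 0.05, and the median was 0.63. DESeq2 called 1 of them (0.942% of the genes to which it gave an adjusted p).

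Of the regulators, Csmd3, one of a family of neuronal membrane proteins with complement-control domains, was at 312 ± 163 CPM in adult control and 114 ± 12.1 after stroke. Adult control 3 was at 500 CPM, against 221 and 216 in adult control 1 and 2. The difference of -1.46 in Csmd3 (log2, SE 0.36) had an adjusted p of 0.0881 in edgeR. Csmd3 was called by DESeq2 (adjusted p = 0.00798) and by edgeR without adult control 2 (adjusted p = 0.0329). With each library left out in turn, edgeR gave -1.65 to -0.94, with adjusted p of 0.0329 to 0.345. Csmd1 and Csmd2 had -0.11 and 0.59 in this comparison and were not called. Clu, clusterin, a secreted chaperone that restrains the terminal pore, was at a mean of 94.3 ± 27.1 CPM in adult control, 57.4 ± 5.73 after stroke, 32.2 ± 20.2 in siRNA-labelled stroke and 24.2 ± 6.62 in P4 (SD, n = 3 each). Astrocytes are rich in Clu, and the list of 12 astrocyte markers summed to 3797 to 5524 CPM in adult control, 619 to 958 after stroke, 913 to 1537 in siRNA-labelled stroke and 348 to 638 in P4. Of the 12, 6 were called lower by edgeR in stroke against adult control, 2 in siRNA-labelled stroke against adult control and 8 in P4 against adult control, and their part in the Clu values was not tested. Calr, an endoplasmic reticulum chaperone that C1q can bind, was at 80.8 ± 69.0 CPM in adult control and 171 ± 28.6 after stroke and was not called. Adult control 3 was at 3.19 CPM for Calr, on 28 counts, against 104 and 135 in adult control 1 and 2. Itgb2, the partner chain of Itgam, was named after its values were seen: it was at 8.60, 10.01 and 0.114 CPM in adult control, 11.2, 9.90 and 21.6 after stroke, 32.9, 51.3 and 31.1 in siRNA-labelled stroke and 0.0936, 0.238 and 0.444 in P4. Itgb2 was thus at 1 count in adult control 3, the library where Itgam was highest of its group. In P4 against adult control 4 of the 43 were called lower, where 10.4% of all genes were: C4b, Clu, Itgb2 and C8a, the last 2 named after their values were seen. In a fit of these 2 groups alone C4b and Itgb2 lost the call (adjusted p 0.0566 and 0.0995), and Clu lost it without P4 library 4 (adjusted p = 0.0511). C8a was at 33.6 CPM in adult control 3 and 3.77 and 0.224 in adult control 1 and 2.

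For each gene, the 2 genes of most similar pattern were taken by Pearson's r of log2(CPM + 1) over the 12 libraries, among 12009 genes that averaged 5 CPM or more in a group, leaving out the 8 themselves and predicted genes; the C1qb and C1qc pair was closer than any partner named for either. For Itgam they were Cx3cr1, the fractalkine receptor of microglia (0.992), and Ccl3, a chemokine (0.988). For C3ar1 they were Srgn (0.997) and Csf2rb2 (0.992), for C1qb Ifngr1 (0.984) and Ctsh (0.975), and for C1qc Tgfbr2 and Tyrobp (both 0.973). C1qa had Irf8, a transcription factor of myeloid cells (0.972), and Cd300a (0.967), and C5ar1 had Fyb (0.982) and Abca8b (0.976). C3 had Ccl5, a chemokine (0.945), and Ifi204, an interferon-induced gene (0.944). Serping1 had Chrna1, a muscle acetylcholine receptor subunit (0.966), and Adh6a (0.961). These are the highest values among many genes and are descriptions. Over the 9 adult libraries, 1 of the 2 remained among the top 2 for C3 (Ccl5), C5ar1 (Fyb) and Serping1 (Chrna1), both remained for C3ar1, and neither for the other genes.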

How the data were processed

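Gene expression was measured in 12 RNA-seq libraries, prepared with an RNA-Microprep kit and the Ovation RNA-seq System v2 and read as 69 bp pairs, per the labels. The submitters' processing notes name CASAVA 1.8.2, edgeR and mm10. For the aligner, the counter, the annotation and strandedness, the tool or setting was not given in the sources used here. Raw read counts per gene, as deposited, were analysed. The same table held the authors' log2 fold changes and the authors' p-values and FDR values for their comparisons, quoted only where named as theirs. Another 30 of its per-sample columns were not used. The first P4 library's column is headed P3 and was matched by its replicate number.

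Counts were fitted with edgeR 4.0.16 (R 4.3.3; TMM factors, filterByExpr, quasi-likelihood F test) in 1 model of all 4 groups, so the spread is shared. Of 23253 genes 17909 were tested, all 8 complement genes among them, and p was adjusted by Benjamini-Hochberg over all of them; a gene was called at an adjusted p below 0.05. SE was taken as |log2 fold change| over the root of F. CPM used TMM-scaled library sizes. The fit was also run on simulated counts with 1 mean per gene and changes planted in stroke alone. That run does not copy the other group differences of these data, and no result rests on it. Replicate numbers shared by groups were checked for pairing; the closing section gives the result. Alternatives were DESeq2 1.42.0, its size factors, no filter, fits of 2 groups, the block on the number, and leaving out each library.

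The complement genes and all lists were chosen with earlier results of these data known. Named genes were the 8, those of the further complement genes called in a comparison of adult groups, the 6 of these with the highest mean CPM, and the 2 most similar to each of the 8, leaving out predicted genes; others are marked as named after their values were seen. One further complement gene is not reported here and is in no list or count of them. Lengths are merged exons of GENCODE vM21. Promoters are RefSeq's on GRCm38.p6. Depth limits counts of a few reads, and amplified reads do not each stand for 1 molecule.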

Additional observations from a re-analysis of the deposited data

How the results depend on the processing

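For the 8 genes, 466 of 496 alternative values kept their direction and side of the threshold, 19 lost a call, 3 gained one and 8 turned. The number of the 8 called was 0 in each comparison among adult groups under every alternative run, except 2 with DESeq2 in siRNA-labelled stroke against adult control. In P4 against adult control it was 6, and it became 3 in a fit of the 2 groups only, 5 with DESeq2's size factors, 7 with DESeq2 and 5 to 6 when each library was left out. In stroke against P4 it was 7, and it became 6 with DESeq2's size factors or no filter and 5 to 6 when each library was left out. It was 7 under each alternative run for siRNA-labelled stroke against P4. Values that turned did so when 1 library was left out. In stroke against adult control C1qa ranged from -1.19 to 0.25, C3ar1 from -0.74 to 0.87 and Serping1 from -2.50 to 0.44. Serping1 ranged from -0.72 to 0.38 in siRNA-labelled stroke against stroke, from -2.65 to 0.12 in siRNA-labelled stroke against adult control and from -0.11 to 1.15 in stroke against P4. In siRNA-labelled stroke against P4 Csmd3 ranged from -0.11 to 0.26 and Clu from -0.16 to 0.79. The cause was not tested. Over all genes, 126 were called in stroke against adult control (31 to 1293 across the alternatives, the most with DESeq2), 1 in siRNA-labelled stroke against stroke (0 to 161), 21 in siRNA-labelled stroke against adult control (0 to 333), 3001 in P4 against adult control (1639 to 4540), 3359 in stroke against P4 (2401 to 4789) and 3517 in siRNA-labelled stroke against P4 (2418 to 4768).

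Deviations from group means were correlated between libraries with the same number. The values were -0.0105, -0.245 and -0.416 between adult control and siRNA-labelled stroke and 0.117, 0.039 and 0.131 between stroke and P4. Libraries of different numbers gave -0.337 to 0.528 in the first pair of groups and -0.129 to 0.118 in the second. These few values cannot show whether libraries of 1 number share more than the number. With a replicate block, 0 of the 8 genes were called in siRNA-labelled stroke against adult control (0 of all genes) and 7 in stroke against P4 (4567 of all genes). C4b had 5.35 in the first with an adjusted p of 0.252. Depth limits the genes with few counts, such as C1qa and C5ar1 in P4.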
